A study of Mus musculus with 2 samples.

Results

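General capillary cells are one of the 2 kinds of endothelial cell that line the alveolar capillaries of the lung. They were described here in 2 droplet single-cell RNA libraries of sorted mouse lung cells, 1 library per genotype. Counts are UMIs (unique molecular identifiers, the tags that count single RNA molecules), and cells were kept from 500 detected genes upwards if mitochondrial UMIs did not exceed 15%. The members were chosen by their own measured UMIs of marker genes, where a gene counts as detected with at least 1 UMI. A kept cell was a general capillary cell when it met 4 conditions. It had at least 3 of the 6 endothelial genes Cldn5, Cdh5, Ptprb, Calcrl, Ramp2 and Tmem100. It had at least 2 of the 6 capillary genes Gpihbp1, Kit, Aplnr, Adgrl3, Sema3c and Glp1r, and more of these than of the aerocyte genes Car4, Ednrb, Fibin, Tbx2, Apln and Chst1. It had at most 2 of the venous genes Vwf, Slc6a2, Selp, Ackr1, Bst1 and Prss23, and at most 2 of the arterial genes Gja5, Gja4, Bmx, Dkk2, Sox17 and Hey1. It had at most 1 of Lamp3, Slc34a2, Dcn, Col1a2 and Ptprc, which mark other compartments. By these conditions 2048 of the 19951 kept cells, from 21547 barcodes in all, were general capillary cells: 1259 in the wild-type (WT) library and 789 in the library labelled Plaur KO.

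The WT mice were C57B6/J. The Plaur KO library carries the same strain label, and Plaur, which encodes the urokinase receptor uPAR, is the targeted gene. Both genotypes had been sensitised with LPS/OVA (lipopolysaccharide and ovalbumin) on day 0 and day 7 and exposed to an OVA aerosol on day 14, so no library comes from unchallenged lungs. There were 8 mice per genotype, of an age the labels do not give, and the labels do not say how many mice went into a library. Lungs were digested and CD45.2-negative cells were sorted, which removes most leukocytes, although the labels call the material total lung cell lysate. With 1 library per genotype no difference below has a replicate check. No test or p-value was computed. The 95% intervals cover counting error only, not the spread between mice or between libraries.

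General capillary cells are the less specialised cells of the alveolar capillary bed. They are known to proliferate after injury and to give rise to aerocytes, the large thin capillary cells that take part in gas exchange. Gpihbp1, their best known marker, encodes the protein that carries lipoprotein lipase across the vessel wall, Kit the receptor for stem cell factor, Aplnr the apelin receptor and Glp1r the receptor for glucagon-like peptide 1.

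Barcodes numbered 11776 (WT) and 9771 (KO-labelled), with 57028943 and 51529241 UMIs in total, and 30 barcode sequences occurred in both libraries. Median depth of kept cells was 4997 and 5570 UMIs. General capillary cells were shallower, with a median of 1370 UMIs in WT and 1340 in KO-labelled members, and of 905 and 892 genes. Their median mitochondrial share was 3.75% and 3.01%. Summed over members there were 2112980 WT and 1195293 KO-labelled UMIs. Levels are given in CPM, the UMIs of a gene relative to all UMIs of the members of a library on the usual scale, and pairs of values are in the order WT, KO-labelled.

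Plaur mRNA was counted in general capillary cells of both libraries, so the transcript does not show the knockout. The assay reads the 3′ end, the labels do not say which part of the gene was deleted, and a tag outside the deleted part checks nothing. The library is therefore called KO-labelled throughout, and each direction below rests on that label. Plaur (ENSMUSG00000046223, GRCm38 chromosome 7, 24462484 to 24475968, plus strand) stood at 92.8 CPM (95% interval 80.2 to 107) in WT members and 155 CPM (133 to 179) in KO-labelled members. The log2 ratio of the KO-labelled over the WT library was 0.74 (0.44 to 1.04). It was 0.56, just under 1.5-fold, with cells thinned to 1500 UMIs. Thinning, here and below, leaves out cells of fewer than 1500 UMIs. It kept 510 of 1259 WT and 298 of 789 KO-labelled members, so raw and thinned values come from different sets of cells. A Plaur UMI was seen in 11.1% of WT and 18.5% of KO-labelled members, or 12.4% and 19.8% after thinning. AT2 cells, the surfactant-making epithelial cells used here as the reference for free RNA, had thinned Plaur shares of 0.644% and 2.67%. In aerocytes the order was the other way, with 444 CPM in WT and 250.1 CPM in KO-labelled cells (log2 ratio -0.83, -1.08 to -0.58).

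The 6 capillary genes that chose the members are given as a description. Gpihbp1 was at 951 and 1317 CPM, Kit at 900.2 and 881, and Glp1r at 577 and 539. Aplnr was at 157 and 122 CPM. Adgrl3, an adhesion receptor, was at 2325 and 2097 CPM, and Sema3c, a secreted semaphorin, at 2677 and 2532. Each was found in most members except Aplnr, whose share was 22.0% in the WT and 16.6% in the KO-labelled library. The number of capillary genes per cell was mostly 3 to 5. Exactly 2 of them were found in 146 WT and 83 KO-labelled members, and all 6 in 95 and 30. Of the 4 given markers Gpihbp1, Kit, Aplnr and Glp1r, 36 WT members (2.86%) and 15 KO-labelled members (1.90%) had none. Genes were also ranked by their level over the median of other endothelial and non-endothelial classes. The 10 leading genes were the same in both libraries: Cldn5, Calcrl, Ptprb, Cdh5, Cyyr1, Cd93, Pecam1, Ctla2a, Gpihbp1 and Adgrl4. Cldn5, Calcrl, Ptprb, Cdh5 and Gpihbp1 are genes of the rule, so their ranks were in part set by the choice of members. Most of these are general endothelial genes, and Gpihbp1 was the only given marker among them.

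Just inside the threshold, cells with exactly 2 capillary genes had Plvap, which forms the diaphragms of endothelial fenestrae and caveolae, at 870.3 CPM in the WT and 909 CPM in the KO-labelled library. Just outside it were 53 WT and 42 KO-labelled cells that had a single capillary gene and met the other conditions. In those cells Plvap was at 540.1 and 1229 CPM, so Plvap was present on both sides of the threshold. Cd93 went from 1083 CPM just inside to 577 just outside in the WT library and from 1372 to 993 in the KO-labelled one. Tek went from 847 to 503 and from 712 to 536, and Scn7a, a sodium channel gene, from 529.7 to 238 and from 549 to 331. A further 17 and 4 cells were left out because the capillary and aerocyte genes tied.

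The members made up 11.6% (11.01 to 12.23) of WT and 8.66% (8.09 to 9.26) of KO-labelled kept cells. As a share of endothelial cells they were 51.2% in each library, of 2461 and 1542 cells. Their share of all kept cells was thus lower in the KO-labelled library, as was that of endothelial cells as a whole, while their place among endothelial cells was the same. AT2 cells, however, made up 38.7% of WT and 65.8% of KO-labelled kept cells, and the shares of all other classes depend on this. A lower share of kept cells therefore does not show that the lungs held fewer capillary cells, which was not tested. Aerocytes by a rule of the same form numbered 560 and 388, venous cells 190 and 87, and arterial cells 30 and 26.

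Beyond the genes of the rule, the general capillary cells carried a transcript profile that differed from aerocytes in both libraries in the same way. Secreted signals and a peptide receptor (Cxcl12, Edn1, Bmp6, Npr3), the lipase gene Lpl, the angiopoietin receptor gene Tek and the MHC class II genes were higher in general capillary cells. Kdr, which encodes the main VEGF receptor, and Emp2, Kitl and Igfbp7 were higher in aerocytes. These classes were cut from the same cells by rules of detected genes, so the comparisons are a description without a test.

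Of 8966 genes compared with aerocytes, 739 (8.24%) were at least 2-fold higher in general capillary cells in both libraries and 438 (4.89%) at least 2-fold lower. Of 7 measured capillary genes outside the rule 4 were higher and 1, Ly6a, was lower. Arterial and venous genes outside the rule were in part higher than in aerocytes too. They were 4 of 7 measured arterial genes, with 1 lower, and 4 of 9 venous genes, with 0 lower. All 8 aerocyte genes outside the rule were lower. Plvap was at 875 CPM in WT and 1171 CPM in KO-labelled general capillary cells against 13.3 and 12.3 CPM in aerocytes. Cd93, a receptor of endothelial adhesion, was at 1312 and 1601 against 17.1 and 16.4 CPM. The Plvap and Cd93 levels of the 2 classes did not come near each other in either library.

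Signalling genes followed the same split. Cxcl12, the chemokine that binds CXCR4, was at 464 and 467 CPM in general capillary cells and at 5.70 and 1.37 CPM in aerocytes. Npr3, the clearance receptor for natriuretic peptides, was at 310.0 and 545 against 0.950 and 2.73 CPM. Edn1, which encodes the vasoconstrictor endothelin-1, was at 176 and 269 against 1.90 and 1.37 CPM. In aerocytes these 3 genes thus rested on a few UMIs. Tek was at 966 and 971 against 60.8 and 38.3 CPM. Bmp6, a ligand of the BMP pathway, was at 1000 and 905 against 73.2 and 61.5 CPM. Lpl was at 345.5 and 500.3 against 13.3 and 6.83 CPM, and its carrier gene Gpihbp1 was in the rule.

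The genes of MHC class II, which present peptides to CD4 T cells, were higher in general capillary cells than in aerocytes of both libraries. Cd74, the invariant chain, was at 912 and 803 CPM against 56.1 and 75.2 CPM, log2 differences of 4.02 and 3.42. Ciita, the master regulator of these genes, was at 109 and 107 against 2.85 and 2.73 CPM, and H2-Aa at 288 and 274 against 26.6 and 32.8 CPM. H2-Ab1, H2-Eb1 and H2-DMa were also at least 2-fold higher. AT2 cells express Cd74 strongly, with a UMI in 99.1% and 99.6% of cells, so free RNA is a background for it. The share of cells with a Cd74 UMI was 46.4% and 41.8% in general capillary cells and 3.57% and 4.12% in aerocytes, whose median depth was 1570 and 1592 UMIs. Among the deeper cells that thinning to 1500 UMIs keeps, it was 51.4% and 48.0% in general capillary cells. Venous cells then had 41.0% and 41.1%, and the few arterial cells 28.6% and 44.4%. Cd74 was thus not particular to general capillary cells.

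On the other side, Kdr was at 306 and 266 CPM in general capillary cells and at 2692 and 2380 CPM in aerocytes. Emp2, a membrane protein gene, was at 150.0 and 154 against 5908 and 5742 CPM. Kitl encodes the ligand of Kit, a gene of the capillary rule, and was at 336 and 335 against 2257 and 2206 CPM. As Kit helped to choose the cells, its own difference between the classes was set by the rule, and only that of Kitl is a measurement. Igfbp7 was at 450.5 and 549.7 against 8723 and 9822 CPM. Outside the rule genes, the 5 genes with the lowest ratio of general capillary cells over aerocytes were Rgs6, Pde8b, Rprml, Slc5a12 and Ccdc184. Rgs6, a regulator of G-protein signalling, was at 5.68 and 8.37 against 740.2 and 750.4 CPM.

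**Figure D1:**
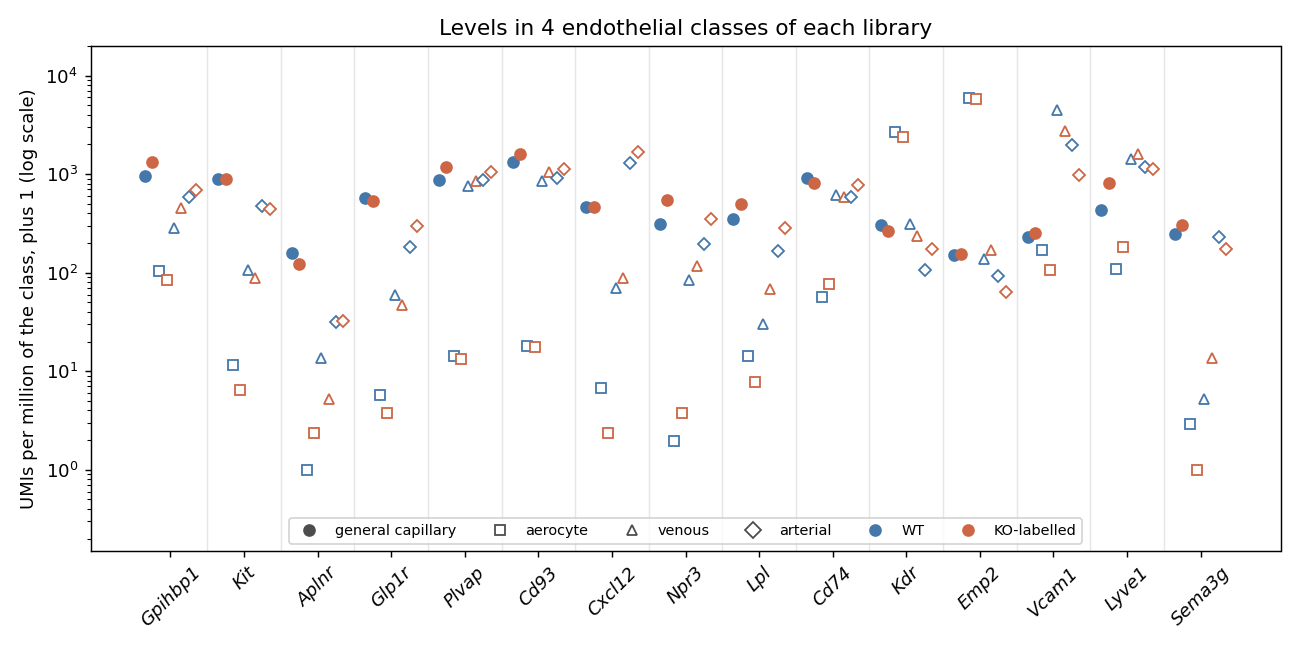
Levels of 15 genes in general capillary cells (filled circles), aerocytes (squares), venous cells (triangles) and arterial cells (diamonds) of the WT (blue) and KO-labelled (red) library, in CPM of the class plus 1 on a log axis. Each point is 1 class of 1 library. Gpihbp1, Kit, Aplnr and Glp1r belong to the rule that chose the cells. Plvap, Cd93, Npr3 and Lpl sit far lower in aerocytes, and Kdr and Emp2 far higher.

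Against venous cells 383 of 8346 genes (4.59%) were at least 2-fold higher in general capillary cells in both libraries and 238 (2.85%) at least 2-fold lower. Of 10 venous genes outside the rule 7 were lower, among them Vcam1, the adhesion molecule for VLA-4, at 230 and 253 CPM against 4429 and 2707 CPM. Against arterial cells 132 of 7823 genes (1.69%) were higher and 419 (5.36%) lower. These counts rest on only 30 and 26 arterial cells. Of 7 measured arterial genes outside the rule 4 were lower. The 7 measured capillary genes outside the rule set the members apart less here than against aerocytes. Of them 3 were higher and 0 lower than in venous cells, and 0 higher and 1 lower than in arterial cells. Cxcl12 was at 1284 and 1684 CPM in arterial and at 69.1 and 87.7 CPM in venous cells, with general capillary cells between them.

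With the rule genes left out, the 8 genes highest over all 3 other classes were Dnah8, Lpin2, Chrm2, Prss12, Pcdh17, Ankrd13a, Nxpe4 and Ccdc85a. The arterial cells held only 66183 and 63553 UMIs in all, and 0 UMIs were set to a floor of 3. For genes of low level the ranking therefore rests on few arterial UMIs. Chrm2, the muscarinic M2 acetylcholine receptor gene, was at 123 and 107 CPM. Pcdh17, a protocadherin gene, was at 594 and 487 CPM, and Lpin2, a phosphatidate phosphatase of lipid synthesis, at 144 and 127 CPM. Prss12, a serine protease gene, was at 53.0 and 65.3 CPM. None of the 4 differed by 1.5-fold between the libraries.

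The members differed in which arterial and venous genes of the rule were detected in them. Cells with at least 1 arterial rule gene and no venous one were called arterial-leaning, and those with the reverse venous-leaning. In the WT library 563 members (44.7%) leaned arterial and 142 (11.3%) venous. In the KO-labelled library 330 (41.8%) leaned arterial and 93 (11.8%) venous. A further 163 and 142 members had genes of both kinds. The split depends on single UMIs, and it is a description.

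Arterial genes that the split did not use showed no common direction between the 2 kinds of member. Efnb2, the arterial ephrin, had log2 differences of arterial-leaning over venous-leaning of -0.04 in the WT and 0.05 in the KO-labelled library. Dll4, a Notch ligand, had -0.32 and 0.10, and Sema3g, a semaphorin, -0.01 and -0.09, all with intervals that included 0. Ltbp4, a matrix protein gene of the same list, was lower in arterial-leaning members, with -0.94 (-1.66 to -0.18) and -0.91 (-1.96 to 0.21). Mgp had 0.51 (0.21 to 0.83) in the WT library and Jag1, a Notch ligand, 1.07 (0.01 to 2.33), and after thinning both turned below 0, to -0.24 and -0.20. In the KO-labelled library Jag1 had -1.003 and Mgp rested on 18 and 1 UMIs. Fbln5, an elastic fibre gene, was lower, from 3 against 11 UMIs in the WT and 2 against 4 in the KO-labelled library. Several venous genes outside the rule did not follow the split. Slco2a1 had -0.09 in each library and Ephb4 -0.23 and 0.20. Il1r1 had 0.15 and -0.04, and Eln 0.03 and 0.13. The intervals of these genes included 0, though Eln had -0.91 and -0.98 after thinning. Nr2f2 (-0.93 and -1.67) and Adgrg6 (-2.22 and -0.86) were below 0 from few UMIs. Lyve1, a hyaluronan receptor gene of the same venous list, was lower in arterial-leaning members of both libraries. It was at 336 against 677 CPM in WT members (log2 difference -1.01, -1.28 to -0.73) and at 619 against 1037 CPM in KO-labelled members (-0.74, -1.02 to -0.46).

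The chemokine genes Cxcl10 and Cxcl9 went the other way. Cxcl10, a ligand of CXCR3 that is induced by interferon, was at 958 against 475 CPM in arterial-leaning and venous-leaning WT members (log2 difference 1.01) and at 1490 against 695 CPM in KO-labelled ones (1.10). Cxcl9, of the same family, had log2 differences of 1.94 and 2.20, from 15 and 7 UMIs in the venous-leaning members. Cxcl9 and Cxcl10 are among the genes with the largest differences of the same sign in both libraries, and were picked for that. Vcam1 did not keep 1 direction, with -1.04 (-1.41 to -0.67) in the WT and 0.90 (0.22 to 1.64) in the KO-labelled library. After thinning to 1500 UMIs the Lyve1 differences were -0.98 and -1.16, those of Cxcl10 0.85 and 1.53, and those of Vcam1 -0.29 and 2.56.

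**Figure D2:**
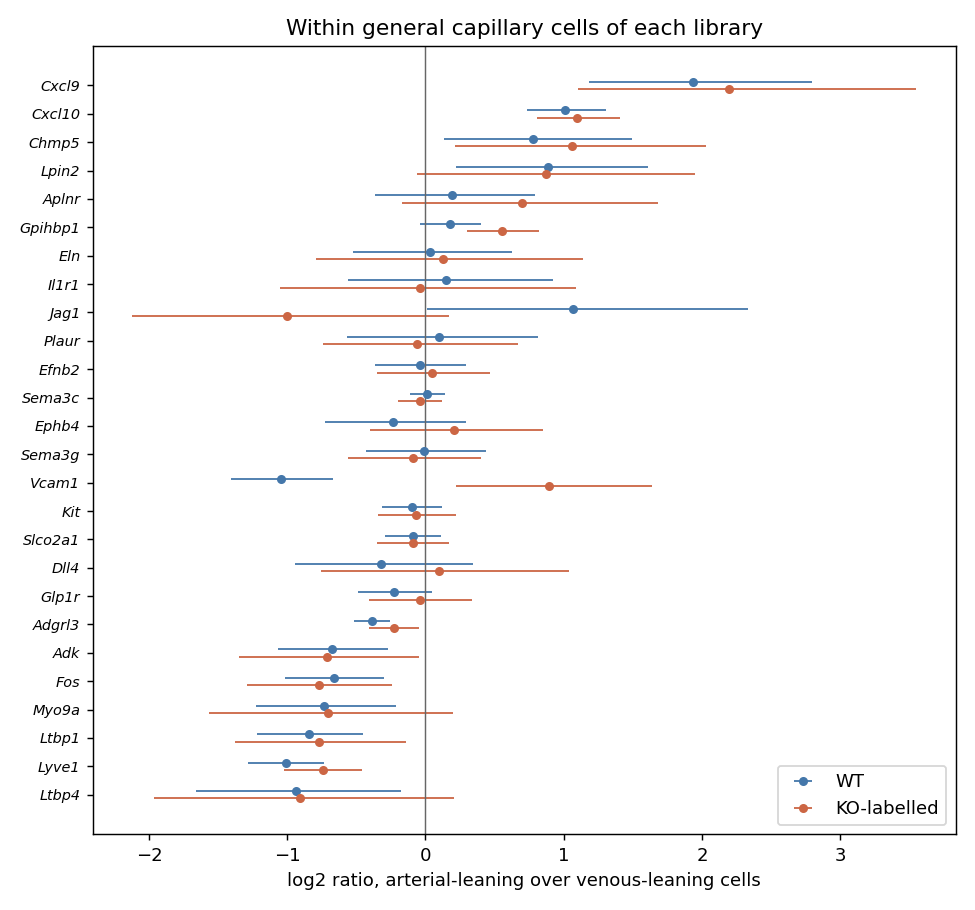
Log2 difference of arterial-leaning over venous-leaning general capillary cells in the WT library (blue) and the KO-labelled library (red), with 95% counting intervals, for genes that the split did not use. Lyve1 lies below 0 in both libraries, Cxcl9 and Cxcl10 lie above 0 in both, and Vcam1 lies on opposite sides. Efnb2, Slco2a1 and Eln lie near 0 in both.

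Few members showed mitotic genes. At least 2 of 8 such genes were detected in 6 of 1259 WT members (0.477%) and 3 of 789 KO-labelled members (0.3802%), a difference that was not detectable at this depth.

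In the KO-labelled library Cyp26b1 had the highest ratio of the genes ranked, several chaperone genes were higher and both cold-induced genes were lower. Markers of airway secretory cells and of some other non-endothelial cells were lower by larger ratios and are given first. The genes of junctions and growth factor reception were mostly close to level. Of 7722 genes with at least 50 UMIs over both libraries, 303 (3.92%) were at least 1.5-fold higher in the KO-labelled library and 610 (7.9%) at least 1.5-fold lower. Without the 37 WT and 6 KO-labelled members of over 3 times their library's median UMIs, a setting chosen after seeing the data, 380 genes were lower. Fewer UMIs remain then and fewer genes can reach the minimum, so 380 is not a share of the 7722. The median log2 ratio over all genes was 0.00. None of the 6 capillary rule genes passed 1.5-fold, with log2 ratios from -0.36 for Aplnr to 0.47 for Gpihbp1. Of the 6 endothelial rule genes 2, Ramp2 and Tmem100, were at least 1.5-fold higher and 0 lower, with a median of 0.36. Both lost the call without the deep members, at 0.47 each. Of 3 measured venous rule genes 2 were higher and 0 lower, with a median of 0.72. The capillary, endothelial and venous rule genes helped to choose the members of both libraries. Their ratios are therefore limited by the rule and are given as a description.

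Genes of other cell types moved with the library. Airway secretory markers summed to 13355 CPM in WT members and 248 CPM in KO-labelled members. Scgb1a1, the club cell secretoglobin, made up most of this at 12138 and 213 CPM, and was seen in 1155 of 1259 and 207 of 789 members. The 10 cells richest in these markers held 84.9% of that sum among WT members and 18.2% among KO-labelled ones, where Bpifa1 and Muc5b were at 0. AT2 markers were nearer to level, at 2158 and 1933 CPM, of which Sftpc was 1211 and 1306. Leukocyte markers summed to 179 and 5.02 CPM, with Cd3e at 0 in both libraries and Ptprc, Csf3r, Tyrobp, S100a8 and S100a9 at 0 in the KO-labelled one. Fibroblast and mural markers summed to 191 and 184 CPM, with Pdgfrb at 0 in KO-labelled members and 151 UMIs of Acta2 in 2 of them. Ciliated markers summed to 400 and 213 CPM, mesothelial markers to 120 and 23.4 CPM with Lrrn4 at 0 in KO-labelled members, and blood cell and platelet markers to 5.68 and 2.51 CPM. Without the deep members the median log2 ratio of ciliated markers went from -1.04 to -0.16 and that of AT2 markers from -0.27 to 0.47. Those of airway secretory (-3.35), fibroblast and mural (-2.95) and leukocyte markers (-4.47) stayed far below 0. The part of this RNA in the differences below was not tested beyond the values without the deep members, which are given where they change a call.

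**Figure D3:**
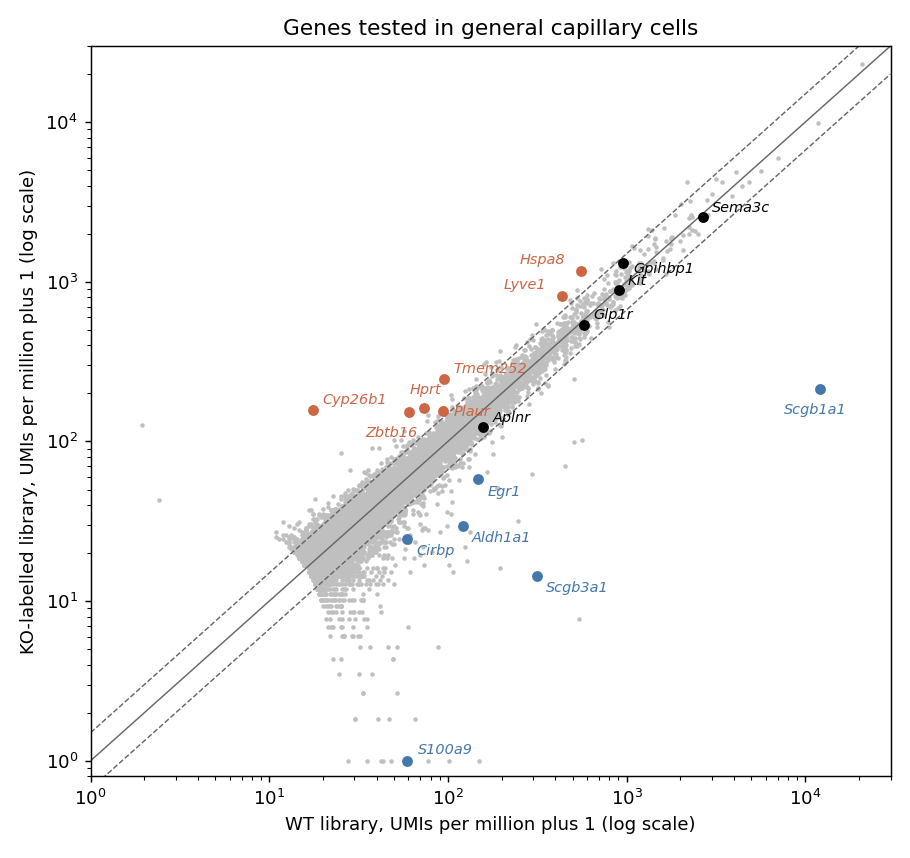
Each point is 1 of the genes with at least 50 UMIs in general capillary cells, at its level in the WT library (horizontal) and the KO-labelled library (vertical), in CPM plus 1 on log axes. The solid line marks equal levels and the dashed lines a 1.5-fold difference. Black points are 5 of the 6 capillary genes of the rule, which helped to choose the members and lie between the dashed lines. Cyp26b1 lies highest above the band among the named genes, and the airway gene Scgb1a1 far below it.

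Cyp26b1 encodes the enzyme that breaks down retinoic acid, the vitamin A derivative that acts through nuclear receptors. It was the gene with the highest ratio among 3876 eligible genes. Cyp26b1 (ENSMUSG00000063415, GRCm38 chromosome 6, 84571414 to 84593908, minus strand) stood at 16.6 CPM in WT members and 157 CPM in KO-labelled members, from 35 and 188 UMIs. The log2 ratio was 3.25 (2.72 to 3.81). The UMIs were spread over 29 WT cells (2.30%) and 123 KO-labelled cells (15.6%), with at most 3 and 7 in a cell. With cells thinned to 1500 UMIs the shares were 1.57% and 13.4%. Over the alternatives run the ratio lay between 3.08 and 3.62.

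Other endothelial classes of the same libraries showed where the Cyp26b1 transcript lay. Aerocytes had a UMI in 0 WT cells and 1 KO-labelled cell, and AT2 cells in 2 of 4198 and 6 of 5991. Venous cells were at 14.7 and 79.4 CPM, from 6 of 190 and 7 of 87 cells, and arterial cells at 45.3 and 189 CPM, from 2 of 30 and 7 of 26 cells. The KO-labelled library was thus higher in all 3 classes with more than 1 positive cell, whereas aerocytes had next to none in either library. Within KO-labelled members Cyp26b1 was lower in arterial-leaning than in venous-leaning cells, at 122 and 206 CPM.

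No other measured retinoic acid gene was 1.5-fold higher. Of 16 genes of synthesis, binding and response 8 were measured, with a median log2 ratio of 0.02. Apart from Cyp26b1, Aldh1a1, which makes retinoic acid, was lower in the KO-labelled library at 121 and 28.4 CPM (-2.09, -2.65 to -1.57), but in only 50 and 6 cells, with a range of -4.67 to -1.43 over the alternatives run. Rarb, a retinoic acid receptor gene, had -0.63 from 41 and 15 UMIs and turned to 0.30 without the deep members. Rara, which encodes the most widely expressed of these receptors, was at 40.2 and 44.3 CPM.

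**Figure D4:**
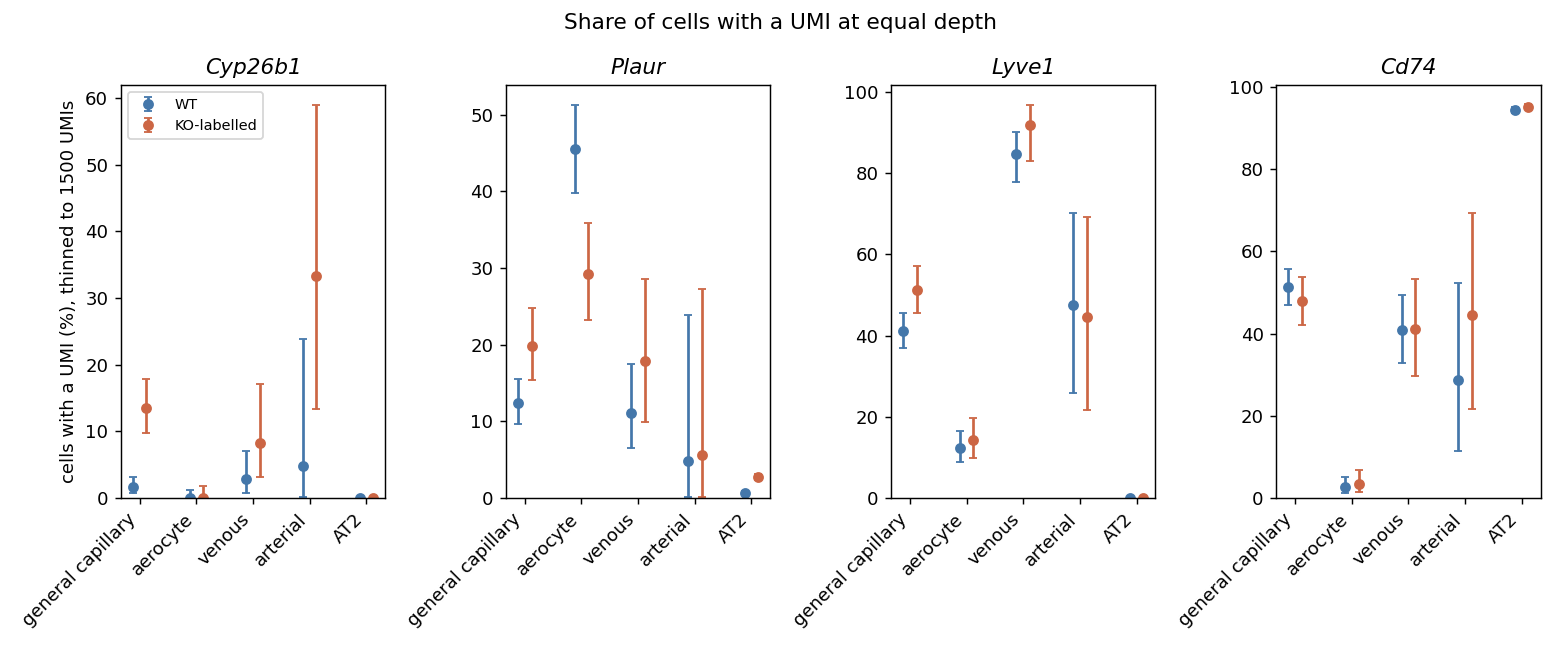
Share of cells with at least 1 UMI of Cyp26b1, Plaur, Lyve1 and Cd74 in general capillary cells, 3 other endothelial classes and AT2 cells. The WT library is blue and the KO-labelled library red. Only cells of at least 1500 UMIs are included, each thinned to 1500 UMIs. Bars are exact 95% binomial intervals and cover counting error only. Cyp26b1 is near 0 in aerocytes and AT2 cells of both libraries, and its share in general capillary cells is 1.57% and 13.4%.

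Heat shock genes, which encode chaperones that refold proteins and the co-chaperones that help them, were higher in the KO-labelled library in 9 cases. Of 20 listed genes 18 were measured, 9 of them at least 1.5-fold higher (3.92% over all genes) and 1 lower (7.9%), with a median log2 ratio of 0.50 against 0.00 over all genes. Hspa8, the constitutive HSP70, was at 558 and 1170 CPM (1.07, 0.96 to 1.18) and was seen in 581 and 562 cells. Hsp90ab1, the constitutive HSP90, was at 1321 and 2150 CPM (0.70), Hspb1, a small heat shock protein, at 240.4 and 399 (0.73), and Dnaja1, an HSP40 co-chaperone, at 294 and 461 (0.65). These 4 genes are among the core of the cytosolic chaperone machinery. Cacybp was at 75.3 and 133 CPM (0.82) and Stip1, the HSP70 to HSP90 adaptor, at 41.2 and 72.0 CPM (0.81).

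Ahsa1 (0.67), Dnajb1 (0.60) and Chordc1 (0.59) completed the 9 genes. Ahsa2, a relative of Ahsa1 outside the list, was among the 8 genes with the highest ratio at 27.5 and 65.3 CPM (1.25), or 0.62 after thinning. The inducible HSP90 gene Hsp90aa1 was level at 576 and 563 CPM (-0.03), but stood at 0.68 without the deep members, and 1 WT cell held 141 of its 1218 WT UMIs. Hspe1 and Hspd1, the mitochondrial chaperonins, had 0.33 and 0.14, and Hsph1, an HSP110, 0.21. Dnajb4, another HSP40, was the lowest at 20.4 and 11.7 CPM (-0.80, -1.78 to 0.10), from 43 and 14 UMIs, and came to -0.23 after thinning. The same list in aerocytes had a median of 0.50, with 8 of 19 genes higher and 0 lower, where 3.1% of all 5395 aerocyte genes were higher and 7.12% lower, so it was not seen in general capillary cells alone.

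Both cold-induced RNA-binding protein genes went the other way. Cirbp was at 58.2 and 23.4 CPM (-1.31, -1.96 to -0.71), in 117 and 28 cells, and Rbm3 at 175 and 98.7 CPM (-0.83, -1.14 to -0.52). They kept their side of 1.5-fold under each alternative run. In aerocytes the values were -0.68 and -0.30.

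To show what the chaperone promoters look like beside these ratios, promoters of 300 bases from 250 before to 50 after the start site, from RefSeq for GRCm38.p6, were searched on both strands. The pattern was 3 units of the heat shock element, GAANNTTCNNGAA, to which heat shock factors are known to bind. It occurred in 198 of 32851 promoters (0.603%), in 39 of the 6154 measured genes with a promoter in the table (0.634%), and in 4 of 15 heat shock genes (26.7%). Those 4 were Chordc1, Hspe1, Hspd1 and Hsph1, of which only Chordc1 was at least 1.5-fold higher. Hspe1 and Hspd1 lie head to head and share the same stretch, so only the Hspe1 strand is printed. Capitals mark the matched bases.
Chordc1, chr9:18292017-18292316, plus strand: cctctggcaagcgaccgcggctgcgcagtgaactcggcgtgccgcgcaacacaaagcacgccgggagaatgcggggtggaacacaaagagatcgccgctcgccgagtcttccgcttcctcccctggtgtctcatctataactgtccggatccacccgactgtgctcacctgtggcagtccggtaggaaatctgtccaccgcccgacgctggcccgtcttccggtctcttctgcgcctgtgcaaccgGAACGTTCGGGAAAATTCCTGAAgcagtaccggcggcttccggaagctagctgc
Hspe1, chr1:55087898-55088197, plus strand: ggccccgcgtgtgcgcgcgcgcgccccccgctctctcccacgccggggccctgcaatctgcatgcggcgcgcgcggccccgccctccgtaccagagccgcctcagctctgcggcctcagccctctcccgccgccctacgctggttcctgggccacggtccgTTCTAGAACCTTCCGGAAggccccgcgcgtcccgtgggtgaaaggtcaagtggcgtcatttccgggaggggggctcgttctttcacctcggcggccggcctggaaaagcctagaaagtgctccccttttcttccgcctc
Hsph1, chr5:149636266-149636565, minus strand: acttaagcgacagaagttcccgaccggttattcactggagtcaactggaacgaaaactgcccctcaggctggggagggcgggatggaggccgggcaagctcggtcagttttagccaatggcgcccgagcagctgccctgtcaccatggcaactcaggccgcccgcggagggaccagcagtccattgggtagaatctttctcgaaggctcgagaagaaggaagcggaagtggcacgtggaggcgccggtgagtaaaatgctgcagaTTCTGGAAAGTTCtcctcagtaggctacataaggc
Chordc1 held 3 overlapping matches over 23 bases, Hspe1 2 over 18 bases and Hsph1 a single one of 13 bases. The genes with a match had log2 ratios between 0.14 and 0.59. Of the 9 heat shock genes at least 1.5-fold higher, 7 had a promoter in the table and Chordc1 was the only one with a match. A match is a description of letters and not of binding.

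The promoter of Cyp26b1, the gene with the highest ratio, is printed beside them and held no match to that pattern.
Cyp26b1, chr6:84593761-84594060, minus strand: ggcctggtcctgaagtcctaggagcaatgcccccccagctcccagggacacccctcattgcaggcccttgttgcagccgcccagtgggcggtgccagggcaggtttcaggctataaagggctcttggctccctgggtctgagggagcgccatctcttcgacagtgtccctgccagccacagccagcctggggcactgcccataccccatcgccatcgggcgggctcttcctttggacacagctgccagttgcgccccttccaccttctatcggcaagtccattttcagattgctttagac
A second pattern, ACANNNTGT, the spaced core of the glucocorticoid response element, was in 2249 promoters (6.85%), in 289 of the 6154 (4.70%) and in 2 of 9 glucocorticoid-induced genes (22.2%), Sgk1 and Mt1. It was in none of the 15 heat shock promoters, nor in that of Cyp26b1. Of the glucocorticoid-induced genes at least 1.5-fold higher, 3 had a promoter in the table and none of these held it.

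Genes that glucocorticoids are known to induce formed a second group, with members on both sides. Of 15 genes 10 were measured, 4 at least 1.5-fold higher (3.92% over all genes) and 2 lower (7.9% over all genes), with a median of 0.43. Zbtb16, a transcription factor gene, was at 59.6 and 152 CPM (1.35, 1.02 to 1.69), in 103 and 147 cells. Fkbp5, a co-chaperone of the receptor, was at 16.1 and 36.0 CPM (1.16, 0.48 to 1.85). Tsc22d3, which encodes GILZ, was at 55.9 and 116 CPM (1.05), and Klf9, a Krüppel-like factor, at 159 and 303 CPM (0.93). Per1 (0.42), Sgk1 (0.34) and Dusp1 (0.44) were under 1.5-fold.

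The lower genes were the metallothioneins, metal-binding proteins with other inducers as well. Mt1 was at 115 and 56.1 CPM (-1.04) and Mt2 at 34.1 and 12.6 CPM (-1.44, or -2.48 without the deep members). The Mt1 call was lost, at -0.52, without the cells that Scrublet, a doublet caller, marked. Zbtb16 had a ratio of 0.40 in aerocytes and Fkbp5 one of -1.65, and the list's median there was 0.29 with 1 of 9 genes higher. Whether the classes differ was not tested. Of 17 clock genes 7 were measured and none passed 1.5-fold, with a median of 0.38.

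**Figure D5:**
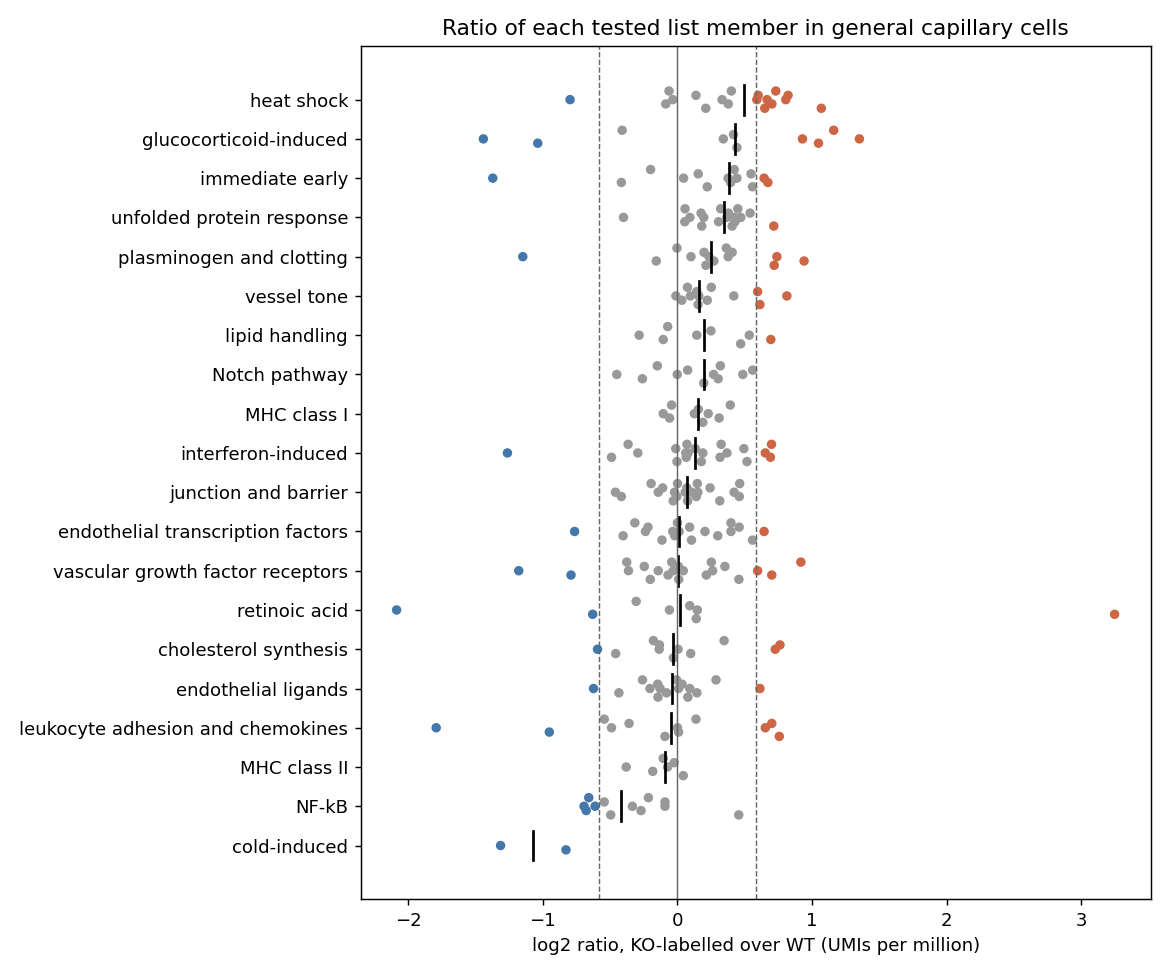
Log2 ratio of the KO-labelled over the WT library for each measured member of the named gene lists in general capillary cells (points), with the list's median as a bar. The dashed lines mark 1.5-fold, with members past it in red (higher) or blue (lower). The medians of heat shock and glucocorticoid-induced genes sit above 0, both cold-induced genes sit below, and junction and barrier genes stay within the lines.

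Among immediate early genes, which switch on within minutes of a stimulus, 14 of 19 were measured. Ier3 at 484 and 771 CPM (0.67) and Klf2, the flow-responsive factor of endothelium, at 1075 and 1680 CPM (0.64) were higher. Both were under 1.5-fold without the deep members, at 0.55 each. Egr1 was lower at 147 and 56.9 CPM (-1.37, -1.77 to -0.99), while Fos (-0.20) and Jun (0.55) stayed within 1.5-fold. Egr1 and Klf2 thus lay on opposite sides. Of 15 genes of the NF-kB pathway, which drives inflammatory transcription, 12 were measured with a median of -0.42, 0 higher and 4 lower, against 7.9% lower over all genes. These were Nfkbiz (-0.69), Birc3 (-0.68), Ripk2 (-0.66) and Nfkb2 (-0.61), while Nfkbia, the feedback inhibitor, was at 578 and 793 CPM (0.46). Nfkbiz lost the call, at -0.39, and Nfkb2, at -0.41, without the deep members, as did Birc3, at -0.53, among cells of at least 1000 genes.

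Unfolded protein response genes were above 0 as a list, with a median of 0.35 over 18 genes, but only Manf, a secreted protein of the endoplasmic reticulum, passed 1.5-fold at 160.0 and 263 CPM (0.72). In aerocytes the median was 0.25 and none passed.

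Genes that serve the vessel wall itself were closer to level. Of 21 junction and barrier genes none passed 1.5-fold, with a median of 0.07. Over all genes 3.92% were higher and 7.9% lower. Plvap was at 875 and 1171 CPM (0.42) and Emcn, an endothelial sialomucin, at 280 and 203 CPM (-0.46), which passed 1.5-fold, at -0.69, among members with no gene of another compartment. Of 19 transcription factors Epas1, the hypoxia factor HIF-2α, was at 2571 and 2572 CPM. Gata6 was lower at 44.0 and 25.9 CPM (-0.76, -1.40 to -0.16).

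Growth factor receptors had a median of 0.01 over 21 genes, 3 higher (3.92% over all genes) and 2 lower (7.9% over all genes). Ramp3, a subunit of the adrenomedullin receptors, was at 34.6 and 65.3 CPM (0.92), and 0.45 after thinning. Ackr3, a scavenger of Cxcl12, was at 130 and 211 CPM (0.70), and 0.57 after thinning. Its ligand gene Cxcl12 was level at 464 and 467 CPM. Flt4, the receptor for VEGF-C, was lower at 52.1 and 30.1 CPM (-0.79), as was Nrp2, its co-receptor, at 34.1 and 15.1 CPM (-1.18). Tek at 966 and 971 CPM and Bmpr2, the type II BMP receptor, at 1985 and 1799 CPM were within 1.5-fold. Endothelial ligand genes had a median of -0.04 over 16 genes, with Edn1 higher and Esm1, a tip cell gene, lower at 23.2 and 15.1 CPM (-0.62, -1.49 to 0.18), or -0.55 without the deep members. Of 11 Notch pathway genes none passed, against the same shares over all genes, with Hes1 at 0.56 and Jag1 at -0.45.

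Genes of vessel tone and clotting were partly higher in the KO-labelled library. Npr3 was at 310.0 and 545 CPM (0.81, 0.65 to 0.97), in 424 and 364 cells. Edn1 was at 176 and 269 CPM (0.61, 0.39 to 0.83) and was under 1.5-fold, at 0.48, without the deep members. Vwf, the clotting factor and a gene of the venous rule, was at 193 and 318 CPM (0.72), or 0.51 as a mean over cells. Plat, tissue plasminogen activator, was at 33.1 and 63.6 CPM (0.94), or 1.70 after thinning. The anticoagulant receptor gene Thbd was at 859 and 1115 CPM (0.38). The lower member was Serpine2 (-1.15), from 47 and 12 UMIs, with -0.23 after thinning.

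Lipid handling is the function for which general capillary cells are best known through Gpihbp1. Of 18 genes 8 were measured with a median of 0.20, and only Fabp5, a fatty acid carrier, passed 1.5-fold at 27.9 and 45.2 CPM (0.69), or 0.45 after thinning. Lpl was at 345.5 and 500.3 CPM (0.53, 0.38 to 0.69). Cd36, the fatty acid translocase, was at 2592 and 2466 CPM (-0.07), found in 1178 and 736 members. Cholesterol synthesis genes had a median of -0.03 over 11 genes.

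Lyve1 was the venous gene outside the rule that differed between the libraries. It was at 433 and 812 CPM (0.91, 0.77 to 1.04), in 38.4% and 52.3% of members and in 41.2% and 51.3% after thinning. AT2 cells had a Lyve1 UMI in 0.262% and 0.2003% of cells. Lyve1 also marks lymphatic cells. Of the 6 listed lymphatic genes Mmrn1, Ccl21a and Reln were at 0 in KO-labelled members, and Prox1 and Pdpn were not. Ccl21a had 161 UMIs in 7 WT cells. In aerocytes Lyve1 was at 108 and 180.4 CPM. Of the arterial genes Mgp, a matrix protein, was lower at 452 and 69.4 CPM (-2.70), with 213 of its WT UMIs in 1 cell.

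Leukocyte adhesion and chemokine genes, which guide leukocytes out of vessels, showed no common direction. Of 17 genes 12 were measured, with 3 higher (3.92% over all genes), 2 lower (7.9% over all genes) and a median of -0.05. Vcam1 was at 230 and 253 CPM (0.14, -0.07 to 0.35). Cxcl10 was at 833 and 1310 CPM (0.65), but in only 150 and 63 cells, with up to 95 and 142 UMIs in a cell, so more cells were positive in the WT library. Ccl2 (0.76, and up to 3.12 under an alternative) rested on 1 KO-labelled cell with 63 of 65 UMIs. Alcam was lower at 98.4 and 28.4 CPM (-1.79), or -0.92 without the deep members and -0.81 without Scrublet-marked cells, and so was Sele, E-selectin, at 19.4 and 10.0 CPM (-0.95), from 41 and 12 UMIs, or -0.55 after thinning.

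Interferon-induced genes had a median of 0.13 over 21 genes. Ifit1, an RNA-binding antiviral protein gene, was at 57.7 and 93.7 CPM (0.70) and Irf7 at 21.8 and 35.1 CPM (0.69), or 0.49 with at least 3 capillary genes. Rsad2, viperin, was lower at 42.1 and 17.6 CPM (-1.26), in 31 and 15 cells, and turned to 0.36 under the filter of 1000 genes and 10% mitochondrial UMIs. MHC class I genes had a median of 0.16 and MHC class II genes one of -0.09, and none of the 9 and 6 passed 1.5-fold. Cd74 was at 912 and 803 CPM (-0.18).

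The other genes at the ends of the ranking were named by the same rule of size. Tmem252, a membrane protein gene that is nearly absent from aerocytes at 1.90 and 4.10 CPM, was at 94.7 and 246 CPM (1.38, 1.11 to 1.64). Venous cells had it at 595 and 622 CPM. Hprt, the purine salvage enzyme gene on the X chromosome, was at 72.4 and 161 CPM (1.15) and also higher in aerocytes, at 50.4 and 267 CPM. Ido1, which breaks down tryptophan, was at 36.4 and 89.5 CPM (1.30) in 44 and 48 cells. Ctla2b was at 40.2 and 89.5 CPM (1.15), but Ctla2a is a close copy and the split of tags between them is uncertain.

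At the low end, 2 genes rested on single deep WT cells. Scgb3a1 had 616 of its 667 WT UMIs in 1 cell, and its ratio of -4.56 became -0.89 without the deep members. Tff2 had 133 of 136 WT UMIs in 1 cell. The others were spread over more cells. March3, a ubiquitin ligase gene, was at 74.8 and 34.3 CPM (-1.12), in 101 and 35 cells, and Ror1, a receptor for Wnt5a, at 68.2 and 34.3 CPM (-0.99), in 102 and 31 cells. Maged1 (-0.98), Pir (-0.97) and Plxnb2 (-0.95) followed, and after thinning Plxnb2 came to -0.13 and Pir to -0.57, and Maged1 came to -0.57 among cells of at least 1000 genes.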

How the data were processed

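The authors deposited unnormalized UMI counts of 32285 genes for each of the 2 libraries. The submitters' processing notes name Cell Ranger 7.0.0, Cell Ranger 7.1.0 and the build mm10, and the file headers give 7.0.0. The selection of barcodes by the authors is not given in the sources used here. Members and gene lists were chosen with earlier results of these data known.

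Counts were summed over members per library and divided by the members' total. Log2 ratios have exact conditional binomial intervals, shares Clopper-Pearson and CPM values Poisson intervals, all at 95% and for counting error only. A gene was called when it passed 1.5-fold with at least 50 UMIs over both libraries, or 2-fold in both libraries between classes. Where 1 library had 0 UMIs of a gene, 3 UMIs served as its floor. No doublet caller shaped the members. Scrublet in scanpy 1.11.5 (expected share 8%) marked 617 (5.69%) WT and 204 (2.24%) KO-labelled cells, 41 and 5 of them members, and leaving these out was an alternative. Other alternatives were 2 other cell filters, stricter member rules, TMM factors from edgeR 4.0.16, totals without the 50 most abundant genes, means over cells, thinning to 1500 UMIs (510 and 298 members) and other UMI minimums. Aerocytes had at least 2 aerocyte genes and more of these than capillary ones; venous and arterial cells at least 3 of their own.

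Named genes were those of the rule, the 2 highest and 2 lowest of each function list with a fixed set, and the 8 highest and 8 lowest with at least 100 UMIs and 50 CPM. That last step left out mitochondrial, ribosomal, haemoglobin, immunoglobulin, Xist, Tsix and Y-linked genes, unnamed gene models, and any gene whose level outside the endothelium was over 10 times higher. Hprt, Maged1, Pir, Tsc22d3 and Rbm3 lie on the X chromosome. Genes named beside this rule were chosen after their values were seen. Positions are from GENCODE M21 (GRCm38), which holds 32158 of the 32285 genes. The intervals were tried on simulated counts drawn with the counting error they assume. Such counts cannot check the spread between cells, mice or libraries. Scripts used Python 3.11.15, numpy 2.4.6, scipy 1.17.1, pandas 2.3.3, matplotlib 3.10.9 and R 4.3.3.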

Additional observations from a re-analysis of the deposited data

Results flagged for a closer look

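Plaur, Ido1 and Msmo1 had opposite directions in general capillary cells and aerocytes of the same libraries. The log2 ratio of the KO-labelled over the WT library for Plaur was 0.74 in general capillary cells and -0.83 in aerocytes. Ido1 had 1.30 and -1.26. Msmo1, a sterol synthesis gene, had 0.76 and -0.73, from 49 and 47 UMIs in general capillary cells. The difference between the classes was not tested.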

How the results depend on the processing

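No paired analysis was possible because each genotype has a single library. Recomputed under each alternative, 1321 ratios of named genes stayed within the counting interval of the reported value, 122 left it and 6 reversed from a value past 1.5-fold. Of the list medians 285 moved by under 0.2, 40 moved more and 1 reversed. TMM moved all ratios by 0.02. Under the filter of 1000 genes and 10% mitochondrial UMIs general capillary cells were 5.40% of WT and 3.27% of KO-labelled kept cells, and 38.6% and 36.3% of endothelial cells. With at least 3 capillary genes these were 10.3%, 7.75%, 45.2% and 45.8%. With no gene of another compartment they were 10.3%, 7.99%, 45.3% and 47.2%. Without Scrublet-marked cells the endothelial shares were 56% and 54.9%. The numbers of higher and lower genes were 549 and 1427 at 20 UMIs and 68 and 75 at 200 UMIs. Lower genes numbered 326 after thinning and 380 without members of over 3 times the median UMIs, a setting chosen after seeing the data. Both settings leave fewer UMIs, so fewer genes can reach the minimum and these counts are not shares of the 7722 genes. The heat shock median was 0.76 after thinning, and the cold-induced one -0.83 at 200 UMIs, where fewer genes were tested. Under the 1000-gene filter 253 genes were over venous and 102 under arterial cells, and with no gene of another compartment 87 were over arterial cells. Venous-leaning KO-labelled members were 14.4% after thinning. The fibroblast and mural median became 6.63 without Scrublet-marked cells. Under the 1000-gene filter Msmo1 became -0.048 and Rsad2 0.36. Rarb became 0.17 without Scrublet-marked cells, 0.36 after thinning and 0.30 without the deep members, where Tff2 became 0.66. The cause of these moves was not tested. Depth limits genes of few UMIs, since a member has a median of 1370 or 1340 UMIs.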
